A study of Mus musculus with 8 samples.

Results

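Glutamate, GABA and glycine act through families of receptors that are encoded by 51 of the 22873 genes in the deposited single nucleus (sn)RNAseq tables of the mouse iris. Genes entered the set by a rule on their names, and the set was chosen with earlier results of these data known. They comprise 4 AMPA, 5 kainate, 7 NMDA and 2 delta receptor subunits (Gria, Grik, Grin and Grid genes), 7 metabotropic glutamate receptors (Grm), 19 GABA-A subunits (Gabra, Gabrb, Gabrg and related names), 2 GABA-B subunits (Gabbr) and 5 glycine receptor subunits (Glra and Glrb). Antisense transcripts and the Gabarap genes, which encode trafficking proteins, were left out, and Grm2 was not analysed here.

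The tissue was iris with attached ciliary body from wild-type albino female mice 6 to 8 weeks old. There were 3 untreated libraries, 3 libraries from irises constricted by hourly drops of the muscarinic agonist pilocarpine (5%) in the light, and 2 libraries from irises dilated by hourly drops of the alpha-adrenergic agonist phenylephrine (5%) with the muscarinic antagonist cyclopentolate (1%) in the dark. Both treatments lasted 6.5 hours, drug and lighting changed together, and no library received drops without drug. Each library pooled 5 or 6 irises, so that a library is not a single animal, and the p-values given here measure the spread between libraries.

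AMPA, kainate, NMDA and delta receptors are assemblies of 4 subunits, and the first 3 of these families form cation channels that open when glutamate binds. GABA-A and glycine receptors are assemblies of 5 subunits around a chloride channel, whereas metabotropic glutamate receptors and the GABA-B receptor signal through G proteins. These families are best known from synapses in the brain and retina. The sphincter and dilator muscles that set the pupil are controlled mainly by acetylcholine and noradrenaline.

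The 8 libraries held 34357 nuclei with 5189437 to 25136427 unique molecular identifiers (UMIs, counted transcripts) per library and medians of 2775 to 4697.5 UMIs per nucleus. The cell types are the 10 labels that the authors deposited for each nucleus, among them the dilator muscle, sphincter muscle classes 1 and 2, the iris pigment epithelium (iris PE), stroma classes 1 and 2, the ciliary body (CB) and the ciliary body epithelium (CBE). All 5 sphincter 1 markers and all 4 markers of CB, stroma 1, stroma 2, leukocytes and endothelial cells were at their highest level in the cell type of that name. None of the 4 markers listed for sphincter 2 and only Zic1 of the 4 for iris PE did so, and these lists hold genes shared with other types. CB and CBE nuclei together made up 14.9% of dilated replicate 1 and 2.86% to 12.5% of the other libraries. The libraries untreated replicate 1 and dilated replicate 1 shared 63 cell barcodes, and no other pair of libraries shared more than 18. Levels are CPM, the UMIs of a gene per 1000000 UMIs of the same library and cell type. CPM grows with gene length because nuclear RNA was aligned to introns as well as exons, so levels of different genes are compared only as CPM per 100 kb of gene span.

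In untreated irises 30 of the 51 genes reached a mean of at least 20 CPM in 1 or more cell types, 15 exceeded 100 CPM somewhere, and 15 stayed under 10 CPM in every type. For 16 of the 30, the cell type with the highest level stood apart from the next by more than the sum of the SDs of both. Because the cell types were defined from the same counts, differences between types are given as descriptions, without tests. Summed over all members, CB held 5287 ± 659 CPM (SD, n = 3), dilator muscle 2553 ± 161, sphincter 1 2265 ± 46.4, iris PE 2035 ± 54.6, CBE 1854 ± 325 and leukocytes 667 ± 227. The heatmap of levels shows 27 of the 30 genes in every cell type.

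**Figure D1:**
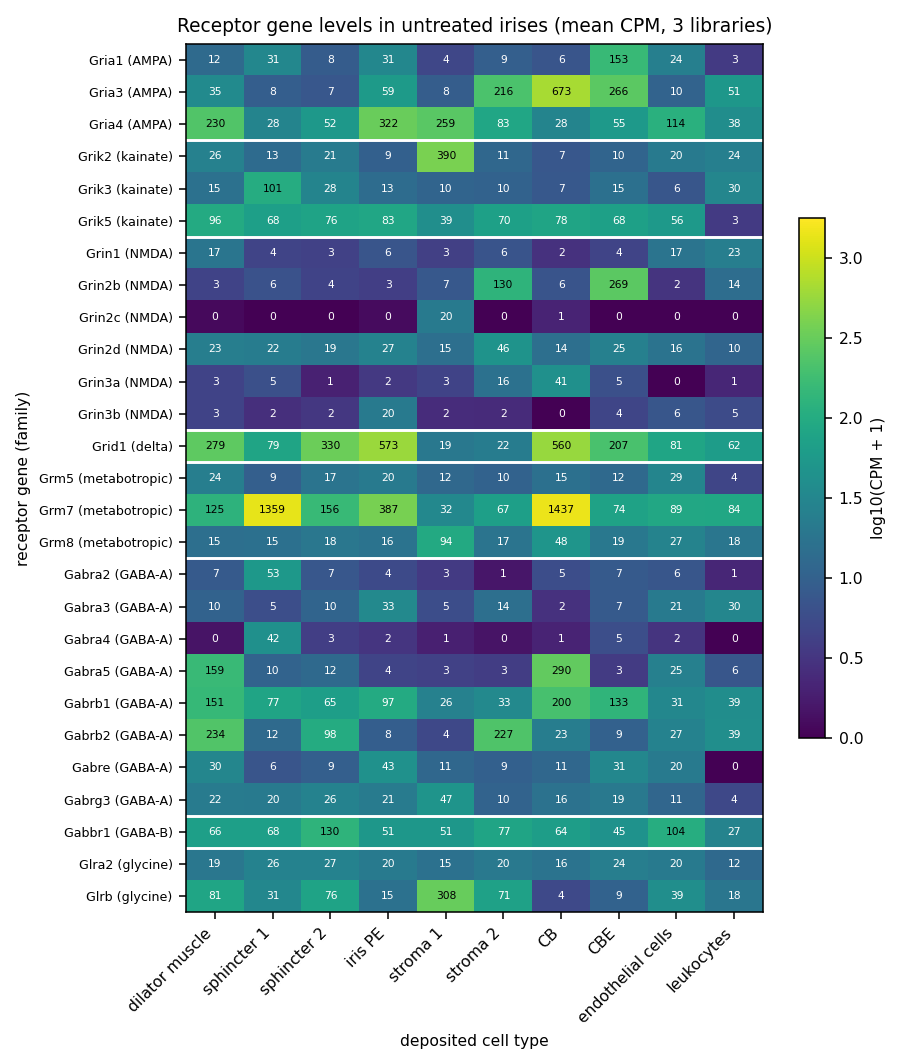
Mean CPM of 27 receptor genes that reached 20 CPM in at least 1 cell type (rows, grouped by family) in the 10 deposited cell types (columns), averaged over the 3 untreated libraries; the colour is log10(CPM + 1) and the number in each cell is the mean CPM. Within its row, Grm7 is brightest in CB (1437 CPM) and sphincter 1 (1359 CPM), Gria3 in CB (673 CPM) and Grik2 in stroma 1 (389.6 CPM).

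Among the AMPA receptor subunits, Gria3 and Gria4 were spread over different cell types. Gria3 was highest in CB (673 ± 59.7 CPM, n = 3), next in CBE (266 ± 32.5) and stroma 2 (216 ± 14.8), and lowest in sphincter 2 (6.53). Gria4 was highest in iris PE (322 ± 55.2), stroma 1 (259 ± 24.5) and dilator muscle (230.3 ± 33.6), and these neighbours in the order lay within their spread. In CB, Gria4 was at 28.1 CPM. The levels of Gria1 followed a further order, with 153 ± 19.6 CPM in CBE and no more than 31.0 in any other type. Gria2 encodes the subunit that, after editing of its mRNA, keeps calcium out of AMPA receptor channels. Its highest mean was 1.54 CPM, in stroma 1, and only 35 Gria2 UMIs were counted over all untreated nuclei. No Gria2 UMI was counted in sphincter 2, endothelial cells or leukocytes, which allows up to 2.37, 7.82 and 6.58 CPM (3 counts over the 3 libraries together, counting error only).

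The kainate receptor subunit Grik2 was highest in stroma 1, the class of stroma with the neural crest gene Sox10, at 389.6 ± 11.7 CPM against 26.2 ± 0.872 in dilator muscle, the next in order. Grik3 was highest in sphincter 1 (101 ± 9.20 CPM). Grik5, which needs another kainate subunit to form a channel, varied less, from 39.2 CPM in stroma 1 to 95.6 in dilator muscle among the types other than leukocytes (2.53). Among NMDA subunits, Grin2b reached 269 ± 54.9 CPM in CBE and 130.3 ± 41.8 in stroma 2, Grin2d 45.9 ± 4.18 in stroma 2, Grin3a 41.3 ± 16 in CB, Grin3b 20.5 ± 1.34 in iris PE and Grin2c 20.0 ± 1.87 in stroma 1. The obligatory NMDA subunit Grin1 was at 17.3 ± 4.20 CPM in dilator muscle, and its higher mean in leukocytes rested on 3 UMIs. In CBE and stroma 2, where Grin2b was highest, Grin1 was at 3.63 and 6.04 CPM, which is 13 and 21.6 CPM per 100 kb against 58.5 and 28.3 for the longer Grin2b.

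The delta receptor subunits differ from the other ionotropic glutamate receptors in binding cerebellin proteins and amino acids such as glycine and D-serine rather than glutamate. Grid1 was highest in iris PE (573 ± 10.7 CPM) and CB (560.2 ± 84.7), which did not differ beyond their spread, followed by sphincter 2 (329.9 ± 13.6) and dilator muscle (279 ± 31.0). Of the metabotropic receptors, Grm7, an inhibitory receptor of presynaptic terminals, reached 1437 ± 253 CPM in CB and 1359 ± 50.6 in sphincter 1, levels within their spread, and 387 ± 25.9 in iris PE. In sphincter 1 the 3 untreated libraries gave 1301, 1392 and 1385 CPM. Grm8, of the same group of metabotropic receptors, was highest in stroma 1 (94.2 ± 28.9).

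A Grm7 UMI was found in 89.5% of the 544 untreated sphincter 1 nuclei and 88.7% of the 346 CB nuclei, against 6.81% of the 1292 stroma 1 nuclei. With every nucleus reduced at random to 1000 UMIs, they came to 65.6%, 63.5% and 2.27%, with 0.735%, 1.16% and 0.929% of nuclei left out as shallower. Median depths per untreated library were 3175.5 to 3814.5 UMIs in sphincter 1, 2951.5 to 3608 in CB and 2624 to 3113 in stroma 1. By the same measure a Grik2 UMI was found in 48.8% of stroma 1 nuclei (26.8% when thinned) against 2.6% in CB (0.292%). RNA from outside the nuclei was not measured, and its part in these shares was not tested.

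GABA-A receptor subunit genes lie in clusters, and the genes within a cluster were not uniform in their cell types. On chromosome 7 (GENCODE vM21, mm10), Gabra5 (chr7:57407672-57510059) was at 290.2 ± 61.8 CPM in CB and 159 ± 38.5 in dilator muscle, and at 283 CPM per 100 kb in CB. Gabrg3 (chr7:56716465-57387188) was instead highest in stroma 1 (46.6 ± 12.7). The sources used here do not state how strand was handled in counting, so that reads of GABA-A genes that overlap another gene on the opposite strand could have been counted for that gene if strand was not used.

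On chromosome 5, Gabra2 (chr5:70957597-71095849) and Gabra4 (chr5:71569749-71658308) were highest in sphincter 1, at 52.5 ± 13.5 and 42.1 ± 14.7 CPM, while no other type exceeded 7.4 and 4.96 CPM for these genes. Gabrb1, whose first bases overlap those of Gabra4 on the opposite strand, was highest in CB (200.3 ± 59.3) and dilator muscle (151 ± 6.27). On chromosome 11, Gabrb2 (chr11:42419757-42629028) was at 234 ± 15.8 CPM in dilator muscle and 227 ± 29.5 in stroma 2.

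The GABA-B subunit Gabbr1 was detected in every type, from 27.2 CPM in leukocytes to 129.8 ± 9.91 in sphincter 2. Its gene is short (29.1 kb), and per 100 kb it had the highest level of the 51 genes in sphincter 1 (233 CPM), sphincter 2 (446), dilator muscle (228), stroma 2 (265), endothelial cells (358) and leukocytes (93.5). The partner that Gabbr1 needs for signalling, Gabbr2, did not exceed 8.38 CPM in any type. Glrb, the beta subunit that anchors glycine receptors to gephyrin, reached 308 ± 30.7 CPM in stroma 1, 81.1 ± 11.3 in dilator muscle and 75.9 ± 13.9 in sphincter 2. Among the glycine receptor alpha subunits, Glra2 was at 12 to 26.8 CPM in the 10 types, and the others stayed at or under 12.9 CPM.

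Transcripts of some genes for the release or synthesis of the ligands were near 0. The vesicular glutamate transporter genes Slc17a6 and Slc17a7 were under 1 CPM in the 10 cell types, and Gad1, which makes GABA, reached 36.4 ± 22.8 CPM in sphincter 1 and at most 2.72 elsewhere.

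The comparison of dilated with untreated irises asked which receptor genes differ when the dilator muscle is contracted and the sphincter is relaxed. edgeR's quasi-likelihood test with Benjamini-Hochberg adjustment over all genes of a cell type was used, and a gene was called at an adjusted p under 0.05 and an absolute log2 fold change over 0.6. After the filter on low counts, 42 of the 51 genes were tested in at least 1 type, which gave 184 tests of a gene in a cell type. Gria2, Gabrr1, Gabrr2, Gabrr3, Gabrp, Grm4, Grm6 and Glra1 were among the 9 left untested. There were 10 calls of lower and 2 of higher expression, of which 7 were in dilator muscle. There 7 of 40 tested members were lower and 0 were higher, beside 13.3% of the 15395 genes tested that were called (945 lower and 1109 higher). The members' median log2 fold change was -0.19 and that of all genes 0.02.

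Gria4 had the smallest adjusted p of the members. In dilator muscle the untreated libraries gave 207, 215 and 269 CPM, the constricted libraries 158, 194 and 197, and the dilated libraries 63.8 and 76.9. Both dilated libraries lay far below the other 6, and no values overlapped. From untreated to dilated the log2 fold change was -1.53 ± 0.20 (SE, adjusted p = 0.000389), a 2.88-fold fall, and from constricted to dilated -1.21 ± 0.20 (adjusted p = 0.00188); both comparisons use the same 2 dilated libraries. These calls held in all 16 alternatives of processing. Grik2 fell in the same nuclei. It was at 26.8, 25.2 and 26.6 CPM in untreated, 21.9, 28.4 and 11.8 in constricted and 8 and 6.61 in dilated libraries. The dilated libraries were below all others, and constricted replicate 3 lay between. Against untreated libraries the log2 fold change was -1.65 ± 0.30 (adjusted p = 0.00293), which held in all 16 alternatives, and against constricted -1.29 ± 0.30 (adjusted p = 0.0159), a call that was lost without dilated replicate 1 (0.0757) or dilated replicate 2 (0.0845) and in a fit of the 2 groups alone (0.052).

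The 250 bases before the RefSeq start sites of these 2 genes (GRCm38.p6, minus strand for both) are shown because the genes fell together in dilator muscle. They were searched on both strands for the cyclic AMP response element TGACGTCA, the AP-1 site TGANTCA and the EGR site GCGNGGGCG, with matches in capitals, for Gria4 at chr9:4796235-4796484 and for Grik2 at chr10:49788755-49789004.
Gria4: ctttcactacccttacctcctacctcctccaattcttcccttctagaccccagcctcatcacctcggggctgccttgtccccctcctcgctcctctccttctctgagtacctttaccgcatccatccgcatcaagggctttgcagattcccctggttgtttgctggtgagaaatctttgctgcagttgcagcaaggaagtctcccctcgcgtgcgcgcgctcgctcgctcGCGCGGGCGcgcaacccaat
Grik2: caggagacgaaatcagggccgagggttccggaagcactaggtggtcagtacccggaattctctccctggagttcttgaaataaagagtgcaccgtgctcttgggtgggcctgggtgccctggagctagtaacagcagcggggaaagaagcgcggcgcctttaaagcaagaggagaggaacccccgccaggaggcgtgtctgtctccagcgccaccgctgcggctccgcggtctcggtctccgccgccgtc
Gria4 held 1 EGR match, 20 to 12 bases before the start, and Grik2 held no match to any of the 3. Among the 32851 promoters of the same table and length, 4.70% held the EGR letters, 6.75% the AP-1 letters and 1.55% the cyclic AMP response element.

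The other 5 dilator calls were each lost in at least 1 alternative. Glrb was at 69.2, 82.6 and 91.6 CPM in untreated, 64.3, 76.7 and 71.3 in constricted and 40.3 and 43.5 in dilated libraries, with both dilated values below the rest. Its log2 fold change against untreated was -0.79 ± 0.18 (adjusted p = 0.0131). This call was lost without dilated replicate 1, untreated replicate 2 or untreated replicate 3 (adjusted p = 0.105, 0.0586 and 0.0717). Grin1 was at 20.6, 12.5 and 18.7 CPM in untreated and 6.22 and 4.21 in dilated libraries, while the constricted libraries, at 19.6, 7.09 and 7.34, ranged from just above the dilated to the untreated level. Its log2 fold change was -1.48 ± 0.40 (adjusted p = 0.0282). Without dilated replicate 1 or 2, or untreated replicate 1 or 3, the adjusted p rose to 0.0829, 0.146, 0.0592 and 0.103. An antisense transcript, Grin1os, overlaps Grin1 on the other strand, so that reads could be shared if strand was not used.

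Grm5, a metabotropic receptor coupled to phospholipase C and bound by Homer scaffold proteins, was at 29.3, 17.5 and 25.0 CPM in untreated and 13.5 and 6.21 in dilated libraries, groups that did not overlap (log2 fold change -1.01 ± 0.31, adjusted p = 0.0447). The constricted libraries, at 20.7, 28.8 and 17.1 CPM, lay within or just under the untreated range. The call was lost without dilated replicate 2, untreated replicate 1 or untreated replicate 3 (adjusted p = 0.277, 0.0935 and 0.145). Gabrg1 was at 4.36, 7.32 and 12 CPM in untreated and 2.76 and 0.802 in dilated libraries, from 7, 52, 76, 28 and 4 UMIs (log2 fold change -1.95 ± 0.51, adjusted p = 0.0228). Its dilated values lay below every untreated and constricted value, and the call was lost without dilated replicate 2, untreated replicate 2 or untreated replicate 3 (adjusted p = 0.133, 0.0555 and 0.126). Gabra6 rested on 4 UMIs in dilated replicate 1 and 0 in dilated replicate 2, which allows up to 0.601 CPM there, against 30 UMIs in the untreated libraries. Its adjusted p was 0.0486 and reached 0.215 without dilated replicate 2. Leaving out dilated replicate 1, untreated replicate 1, 2 or 3, or constricted replicate 2 ended the call as well (0.0776, 0.0612, 0.0901, 0.173 and 0.0571), as did DESeq2 (0.0551), the block for the series of library numbers (0.0546) and the replicate block (0.103).

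Whether Gabra5 was called in dilator muscle depended on the fit. It was at 200, 154 and 124 CPM in untreated, 201, 239 and 74.6 in constricted and 121 and 51.7 in dilated libraries. Both dilated values lay below the untreated ones, but constricted replicate 3 lay between the 2 dilated values and dilated replicate 1 was close to the untreated range. The log2 fold change was -0.69 ± 0.40 (adjusted p = 0.288) without a block. It was -1.06 ± 0.29 (adjusted p = 0.0196) with the replicate number as a block and -0.96 ± 0.19 (adjusted p = 0.00367) with the series of library numbers as one, and both passed. Gabrb2, at 216 to 244 CPM in untreated and 188 and 232 in dilated libraries, had a log2 fold change of 0.02 ± 0.16 (adjusted p = 0.953). Beside these results, the summed level of the 4 dilator markers (Adra1a, Nos1, Chrm2 and Myh11) in dilator muscle nuclei was 3081 to 3467 CPM in untreated, 2979 to 3532 in constricted and 1797 to 1916 in dilated libraries, and 2 of the 4 were called lower. The sum of the 4 markers of stroma 1, where Gria4, Grik2 and Glrb are abundant, was 10.3 to 18.7, 2.37 to 4.84 and 4.94 to 6.81 CPM in the same nuclei, and that of the 4 iris PE markers 7768 to 8118, 7041 to 8543 and 9122 to 9717 CPM. Among the iris PE markers is Pax6, which the study also found in dilator and sphincter muscle, so their sum is not specific to iris PE. The part of any of these sums in the results was not tested.

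**Figure D2:**
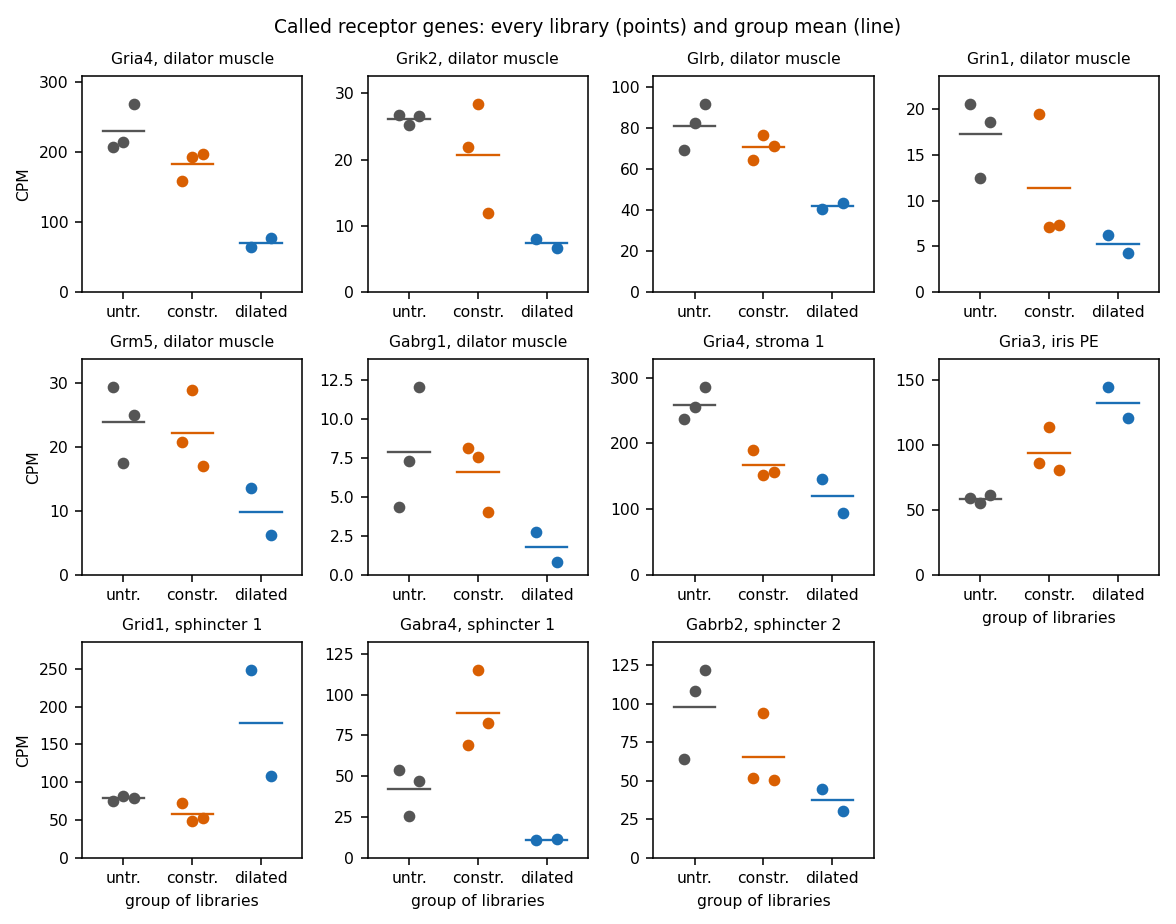
CPM in every library (points) with the mean of each group (horizontal lines) for 11 pairs of a called receptor gene and a cell type; untr., untreated (3 libraries), constr., constricted (3), dilated (2), with each vertical axis starting at 0. The dilated points lie below all untreated points in the 6 dilator panels, and above them for Gria3 in iris PE and Grid1 in sphincter 1, where 1 dilated library stands at 248 CPM and the other at 108.

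Outside the dilator muscle there were 5 calls, 1 in each of 5 cell types. In stroma 1, 1 of 15 tested members was lower and 0 were higher, beside 1.17% of all genes called. This was again Gria4, at 237, 255 and 285 CPM in untreated, 190, 152 and 156 in constricted and 146 and 93.4 in dilated libraries. The 3 groups did not overlap and the constricted libraries lay in between. The log2 fold change was -1.10 ± 0.19 against untreated (adjusted p = 0.00665) and -0.47 ± 0.20 against constricted (adjusted p = 0.393). The first was lost without dilated replicate 2 (adjusted p = 0.151) or untreated replicate 3 (0.0592). Schwann cell markers in stroma 1 summed to 780 to 873 CPM in untreated and 784 to 902 in dilated libraries, and the 4 iris PE markers to 23212 to 23934 and 28995 to 29459 CPM. In untreated libraries the sum of these 4 iris PE markers had a mean of 23492 CPM in stroma 1 and 11474 in iris PE. The sum is therefore not specific to iris PE, and its part in the Gria4 result was not tested.

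In iris PE, 1 of 36 tested members was higher and 0 were lower, beside 0.595% of all genes called. Gria3 (chrX:41400854-41678601) was at 59.3, 54.9 and 61.3 CPM in untreated, 86.1, 114 and 80.4 in constricted and 144 and 121 in dilated libraries. Dilated values were above all others, and the 3 constricted values were above the 3 untreated. The log2 fold change was 1.22 ± 0.17 (adjusted p = 0.00657) against untreated, 0.67 ± 0.16 (adjusted p = 0.785) from untreated to constricted, and 0.55 ± 0.17 (adjusted p = 0.252) from constricted to dilated. The call was lost without dilated replicate 1 or untreated replicate 2 (adjusted p = 0.0502 for the latter). Over the 16 alternatives the log2 fold change against untreated was 1.13 to 1.30. Gria3 is most abundant in CB and CBE. The 4 CB markers in iris PE nuclei summed to 209 to 298 CPM in untreated and 154 to 263 in dilated libraries. The 4 CBE markers summed to 1070.2 to 1177 and 959 to 1239 CPM, but they include Zic1, which is highest in iris PE itself. Another of them, Slc6a13, was at 7.52, 2.59 and 3.02 CPM in untreated, 2.63, 0 and 1.5 in constricted and 13.7 and 9.25 in dilated iris PE. It was called higher in dilated than in constricted libraries (log2 fold change 2.80 ± 0.56, adjusted p = 0.0422). The part of CB or CBE RNA in the Gria3 result was not tested.

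In stroma 2, 1 of 30 tested members was lower and 0 were higher, beside 1.73% of all genes called. In stroma 2 nuclei Gria3, at 231, 201 and 214 CPM in untreated and 125 and 134 in dilated libraries, had a log2 fold change of -0.69 ± 0.16 that did not pass (adjusted p = 0.0593), and Gabrb2 one of -0.93 ± 0.23 (adjusted p = 0.0711). Both passed with the series of library numbers as a block (adjusted p = 0.0138 for Gria3 and 0.0097 for Gabrb2), with DESeq2 (0.0365 and 0.0168) and without the filter, and neither with the replicate block (0.0589 and 0.0572). Gabrb2 passed also in a fit of the 2 groups alone (0.0273) and without constricted replicate 1 or 2 (0.0317 and 0.0498). The 4 endothelial markers in stroma 2 summed to 133 to 151 CPM in untreated, 92.6 to 214 in constricted and 458 to 685 in dilated libraries, and 3 striated muscle markers to 22.6 to 35.1, 44.1 to 73.4 and 155 to 220 CPM. Their part in the stroma 2 results was not tested.

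In sphincter 1, 1 of 14 tested members was higher and 0 were lower, beside 1.95% of all genes called. Grid1 was at 75.3, 81.3 and 79.4 CPM in untreated, 72.4, 48.4 and 53.1 in constricted and 248 and 108 in dilated libraries, from 91 and 47 UMIs in the last 2. The dilated libraries were above all others, but they differed widely between themselves. The log2 fold change against untreated was 1.17 ± 0.28 (adjusted p = 0.0268) and fell to 0.54 without dilated replicate 1 (adjusted p = 0.629). It was also lost without untreated replicate 2 or 3 (0.0964 and 0.174), with DESeq2 (0.0864), with the replicate block (0.0931) and without doublets (0.0606). Against constricted libraries the log2 fold change was 1.57 ± 0.32 (adjusted p = 0.00527), and without dilated replicate 1 it was 0.94 (0.224). The 5 sphincter 1 markers summed to 6707 to 7789.9 CPM in untreated and 5294 to 6327 in dilated sphincter 1 nuclei, with 2 of them called lower. In the same nuclei the 4 markers of iris PE, where Grid1 is abundant, summed to 1484 to 2328 CPM in untreated, 1041 to 2159 in constricted and 2998 to 3294 in dilated libraries, and the 4 CBE markers to 64.5 to 190, 149 to 299.5 and 265 to 284 CPM. The iris PE list includes Pax6, which the study also found in sphincter and dilator muscle, so its sum is not specific to iris PE. The part of these shifts in the result was not tested. In sphincter 2, 1 of 12 tested members was lower and 0 were higher, beside 2.87% of all genes called. Gabrb2 was at 64.1, 108 and 122 CPM in untreated, 51.9, 93.8 and 50.6 in constricted and 44.5 and 30.7 in dilated libraries, from 12 and 9 UMIs in the dilated. The dilated values were lowest, with a log2 fold change of -1.44 ± 0.37 (adjusted p = 0.0249) that was lost without dilated replicate 1 or 2 or untreated replicate 2 or 3 (adjusted p = 0.071, 0.278, 0.11 and 0.198) and with the replicate block (0.0546).

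In CB, CBE and leukocytes, 17, 18 and 2 members were tested and 0 were called by edgeR, with 1, 1 and 0 of them at an unadjusted p under 0.05. Of all genes tested in these types, 5.2%, 4.3% and 11.2% had an unadjusted p under 0.05. In CB, Grm7 was at 1727, 1265 and 1319.8 CPM in untreated and 1122 and 918 in dilated libraries, a difference that did not pass the test (log2 fold change -0.46 ± 0.26, adjusted p of 1.00). No member passed the filter in endothelial cells.

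Dilated and constricted irises were compared over the same 184 tests, with 5 members lower and 1 higher in dilated libraries. Since the dilated libraries are the same 2 as above, this comparison is not independent of the first. In dilator muscle 3 of 40 members were lower, beside 10.5% of all genes called: Gria4 and Grik2, given above, and Gabra6. The last had an adjusted p of 0.0459 and was lost when any library but constricted replicate 1 was left out (0.0536 to 0.208), in a fit of the 2 groups alone (0.0841) and with either block (0.0626 for the series and 0.069 for the replicate number). In sphincter 1, 1 member was higher (Grid1, above) and 1 lower, beside 3.7% of all genes called. The lower one, Gabra4, was at 53.8, 25.5 and 46.9 CPM in untreated, 69.1, 115 and 82.9 in constricted and 10.9 and 11.5 in dilated libraries, from 21, 19, 25, 4 and 5 UMIs in the last 5. The constricted values were the highest and the dilated the lowest, and no groups overlapped. Gabra4 fell by 2.89 on the log2 scale from constricted to dilated (SE 0.47, adjusted p = 0.000719), which held in all 16 alternatives. From untreated, the log2 fold change was -1.78 ± 0.49 to dilated (adjusted p = 0.0703, and 0.034 with the series block) and 1.11 ± 0.32 to constricted (adjusted p = 0.317). In sphincter 2, Grm7 was the 1 member lower of 12 tested, beside 2.45% of all genes called. It was at 214, 303 and 148 CPM in constricted and 104 and 81.8 in dilated libraries, while untreated values of 110, 139 and 218 overlapped the constricted range (log2 fold change -1.15 ± 0.32, adjusted p = 0.0405). This call was lost when any of 5 libraries was left out, dilated replicate 1 or 2, constricted replicate 1 or 2 or untreated replicate 2 (adjusted p = 0.0953, 0.303, 0.0872, 0.163 and 0.0516). It was also lost with DESeq2 (0.0936), in a fit of the 2 groups alone (0.0568), with the series block (0.1) and without doublets (0.0503), so that it held in 7 of 16 alternatives.

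Between constricted and untreated irises edgeR called 0 members, beside 0.0119% of all genes in the 9 cell types with a member tested. DESeq2 called 0 as well. In the edgeR fits 26 of the 184 tests had an unadjusted p under 0.05, beside 4.09% (dilator muscle) to 6.78% (CBE) of all genes in these cell types. The smallest adjusted p was that of Grm8 in CBE (0.276), with a log2 fold change of 1.77 ± 0.45. Grin3b in iris PE had one of -1.15 ± 0.22 (adjusted p = 0.496).

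Whether an effect of dilation differed between cell types was tested in joint fits of pairs of the 6 iris types with a term for each library. Of 56 such tests over the members called against untreated, 22 had an adjusted p under 0.05. Gria4 was called in both dilator muscle and stroma 1, so the test of that pair was counted from both sides among the 56. A pair was tested only if the member was called in either type from the same libraries, which favours a difference. The share of all genes that differed is not given here, so the count has no background. The fall of Gria4 in dilator muscle differed from its change in iris PE by 1.74 ± 0.11 on the log2 scale (adjusted p = 2.54e-10), where untreated and dilated libraries stood at 270 to 380 and at 328 and 384 CPM. It differed from stroma 2 by 1.33 ± 0.17 (adjusted p = 0.000126), and from sphincter 1 by 1.60 ± 0.45 (adjusted p = 0.0111), a difference that was lost without dilated replicate 1 (adjusted p = 0.9) or without library terms (0.124). Its difference from stroma 1 did not pass (-0.44 ± 0.21 for dilator minus stroma 1, adjusted p = 0.27). The fall of Grik2 in dilator muscle differed by 1.28 ± 0.21 from stroma 1 (adjusted p = 4.42e-05), where Grik2 was most abundant and had a log2 fold change of -0.33 ± 0.18. Glrb likewise differed between dilator muscle and stroma 1, by 0.77 ± 0.16 (adjusted p = 0.00146), its log2 fold change in stroma 1 being 0.00 ± 0.16. Both were lost in fits without library terms (adjusted p = 0.0707 and 0.138). The fitted changes of Gria3 had opposite signs in iris PE and stroma 2, with a difference of -1.90 ± 0.17 (adjusted p = 7.76e-07). The values of Gria4, Gria3, Grid1 and Glrb in each cell type are shown in the plot of dilation effects by cell type.

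**Figure D3:**
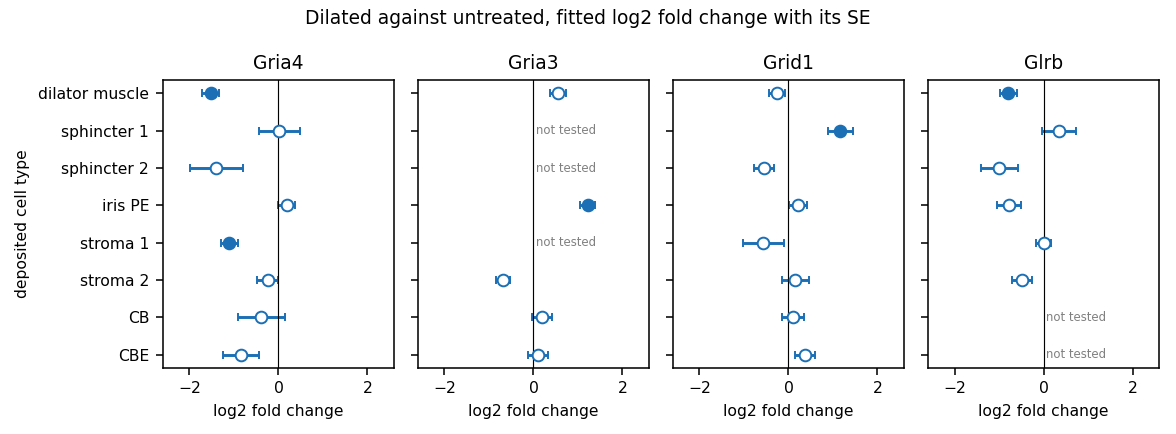
Fitted log2 fold change from untreated to dilated libraries (points) with its SE (lines) for Gria4, Gria3, Grid1 and Glrb in 8 deposited cell types; filled points were called (absolute log2 fold change over 0.6 and adjusted p under 0.05), open points were not. Gria4 lies near -1.5 in dilator muscle and near 0 in iris PE and sphincter 1, Gria3 is on opposite sides of 0 in iris PE and stroma 2, and Glrb is at 0.00 in stroma 1.

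Genes for proteins that bind these receptors or handle their ligands were read beside the same shares of all genes called, 13.3% in dilator muscle. Of 18 tested scaffold and auxiliary genes of ionotropic glutamate receptors, 2 were higher and 1 lower in dilated dilator muscle, a count near that share. Homer1, which links group I metabotropic receptors such as Grm5 to the cytoskeleton and to calcium stores, rose from 30.4 to 139 CPM (log2 fold change 2.44 ± 0.24, adjusted p = 5.22e-05). Nptxr, a pentraxin receptor that gathers AMPA receptors, rose from 0.759 to 5.62 CPM (2.94 ± 0.44, adjusted p = 0.000882), and Cbln2, a ligand of delta receptors, fell from 4.71 to 0.398 CPM (-3.20 ± 0.55, adjusted p = 0.00219). Of 10 scaffold and auxiliary genes of GABA and glycine receptors, 1 was higher and 2 were lower there, among them Kctd16, an auxiliary subunit of GABA-B receptors (67.6 to 22.4 CPM, -1.40 ± 0.21, adjusted p = 0.000834). Of the 5 chloride cotransporters, 2 were higher and 0 lower, with Slc12a2, which loads cells with chloride, at 25.9 CPM in untreated and 60.0 in dilated libraries (1.46 ± 0.22, adjusted p = 0.000826). Of 10 tested genes for glutamate synthesis, release and uptake 0 were called, with a median log2 fold change of -0.27, and of 8 for GABA and glycine synthesis, uptake and breakdown 1 was higher and 0 lower.

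In sphincter 1, 2 of the 10 tested glutamate receptor scaffold genes were lower and 0 higher, beside 1.95% of all genes called: Dlgap1, a postsynaptic density protein (1071 to 348 CPM, log2 fold change -1.57 ± 0.24, adjusted p = 0.000706), and Grip2, which binds AMPA receptors (67.5 to 14.9 CPM, -2 ± 0.46, adjusted p = 0.022). Gad1 fell from 51.2 CPM in constricted to 11.4 in dilated sphincter 1 nuclei (-2.13 ± 0.56, adjusted p = 0.035). Glul, of the list for glutamate synthesis, release and uptake, rose there from 32.2 to 114 CPM (1.85 ± 0.51, adjusted p = 0.0452), with 51.8 and 175 CPM in the dilated libraries. In sphincter 2, Kctd16 fell from 122 to 29.3 CPM (-2.12 ± 0.46, adjusted p = 0.00661), Nptx2, an extracellular pentraxin that clusters AMPA receptors, rose from 37.2 to 88.9 CPM (1.60 ± 0.41, adjusted p = 0.0225), and the cystine-glutamate exchanger gene Slc7a11 fell from 208 to 84.9 CPM (-1.06 ± 0.30, adjusted p = 0.0448). In stroma 2, Slc12a2 rose from 239.7 to 1501 CPM (2.73 ± 0.36, adjusted p = 0.00379) and Cacng5, of the family of AMPA receptor auxiliary subunits, from 1.61 to 19.3 CPM (3.53 ± 0.66, adjusted p = 0.0213), beside the endothelial and striated muscle markers given above. In iris PE, Gldc, of the glycine cleavage system, rose from 36.1 to 63.9 CPM (0.89 ± 0.16, adjusted p = 0.0287).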

How the data were processed

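Single nuclei were isolated from dissected irises by homogenization, and per the labels and the methods of the study the authors aligned reads to a mm10 pre-mRNA index (exons and introns) with Cell Ranger 3.1.0, filtered nuclei by depth and mitochondrial transcripts, and named cell types with Seurat. The deposited tables hold raw UMI counts per gene and nucleus, a cell type label for each nucleus, and the percent of mitochondrial UMIs as computed by the authors, which was not used here. How strand was handled is not given in the sources used here. In 2707 nuclei the counts summed to a total that differed from the deposited one by up to 13 UMIs.

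UMIs were added up for every library and deposited cell type and tested with edgeR 4.0.16 in R 4.3.3 (TMM scaling, filterByExpr, quasi-likelihood F test, two-sided, Benjamini-Hochberg over all genes of the cell type). All 8 libraries entered each fit, and an arm with a single library left was assumed to vary like the others. SE is the absolute log2 fold change divided by the square root of F. Calls needed an absolute log2 fold change over 0.6 and an adjusted p under 0.05. All adjusted p-values in the text are from these fits unless DESeq2 1.42.0 is named. The nuclei of a library were not treated as replicates. Effects were compared between cell types by an interaction term in joint fits with a term for each library. The scripts were tested on simulated data. Doublets were called with Scrublet through scanpy 1.11.5 (359 nuclei, 1.04%), kept, and left out as an alternative. Gene spans and coordinates are GENCODE vM21 and promoters RefSeq GRCm38.p6, where 9 of the 13 called members had an entry.

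The receptor genes, the lists of related genes and the markers were chosen with earlier results of these data known. Named by rule were every called member, the 3 highest members of each cell type, the highest of each family, and called genes of the related lists in cell types with a called member, at most 5 per type. Other members were described after their values were seen, and the values of a few members are not reported here. Alternatives were RLE scaling, DESeq2, no filter, the 2 compared groups alone, blocks for replicate number and for the series of library numbers, no fold limit, omission of each library and of doublets, and, chosen after seeing the data, omission of nuclei with shared barcodes. Intervals and floors cover counting error only.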

Additional observations from a re-analysis of the deposited data

Results flagged for a closer look

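The change from untreated to dilated libraries differed between cell types for 22 pairs of a receptor gene and a second cell type, by the interaction term of a joint edgeR fit (adjusted p under 0.05, all values on the log2 scale). Pairs were tested only where the gene was called in either type from the same libraries, which favours a difference. What share of all genes differed between the same types is not given here, so the count of 22 has no background. For Gria4, the change in sphincter 1, iris PE and stroma 2 minus that in dilator muscle was 1.60, 1.74 and 1.33, and the change in iris PE and stroma 2 minus that in stroma 1 was 1.25 and 0.88. For Gria3, the change in dilator muscle and in stroma 2 minus that in iris PE was -0.67 and -1.90. For Grik2, the change in iris PE, stroma 1 and stroma 2 minus that in dilator muscle was 1.38, 1.28 and 1.37.

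For Glrb, the change in sphincter 1 and stroma 1 minus that in dilator muscle was 1.17 and 0.77. The change of Grin1 in iris PE minus that in dilator muscle was 1.51, that of Gabrg1 in iris PE minus dilator muscle was 2.57, and that of Grm5 in stroma 1 minus dilator muscle was 1.71. For Gabrb2, the change in dilator muscle and iris PE minus that in sphincter 2 was 1.44 and 2.01.

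For Grid1, the change in dilator muscle, sphincter 2, iris PE, stroma 1 and stroma 2 minus that in sphincter 1 was -1.44, -1.69, -0.92, -1.85 and -1.05. Each of the 5 Grid1 differences was lost without dilated replicate 1, with adjusted p of 0.0625, 0.113, 0.89, 0.453 and 0.495. Of the 22 differences, 3 held in all 8 alternatives: Gria3 in stroma 2 against iris PE, and Gria4 in iris PE and in stroma 2 against dilator muscle.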

How the results depend on the processing

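Of the 18 calls, 4 held in all 16 alternatives (Gria4 and Grik2 in dilator muscle against untreated, Gria4 in dilator muscle and Gabra4 in sphincter 1 against constricted), 0 changed direction, and 222 of 286 values under alternatives stayed past the threshold. Against untreated, the 12 calls in dilated libraries became 21 with a block for the series of library numbers, with 11 of the 12 among them. They became 3 to 13 when 1 untreated or constricted library was left out. There were 3 without untreated replicate 3, and 6 without untreated replicate 2, with 5 of the 12 among these 6. Constricted against untreated gave 3 calls without the filter (Grin2b and Grm8 in stroma 2, Grm8 in CBE) in place of 0, and 0 when any library was left out. Against constricted, the 6 calls in dilated libraries became 3 in a fit of the 2 groups alone and 10 with the series block, with 4 of the 6 among these 10. They became 4 to 8 when 1 untreated or constricted library was left out. For comparisons with dilated libraries, omission of 1 of the 2 leaves 1, and those counts are not given. What share of all genes was called at each setting is not given either, so these counts have no background. The 22 differences between cell types fell to 5 without the library terms and to 12 to 20 when 1 untreated library was left out (12 without untreated replicate 3). Gene and cell type pairs with a UMI in over 20% of nuclei numbered 44, and 17 after thinning to 1000 UMIs. The cause of these shifts was not tested. The 12 calls were all found with RLE scaling, and 9 of them with DESeq2, which also made 12.

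Replicate numbers came only from the labels. Samples with the same number had correlated deviations of -0.25 to 0.45 (median 0.07 over 70 pairs), and other pairs a median of -0.06, so the numbers were not taken as a pairing. In dilator muscle alone, pairs of the same number had a median of 0.23 (-0.03 to 0.43, 7 pairs), and the 8 pairs of different groups from the same series of library numbers 0.18 to 0.43, against a median of -0.18 for the 13 from different series. The labels do not say what a series shares. The methods of the study describe 5 processing batches and 2 sequencing runs, with every condition spread over at least 2 batches. Which library fell in which batch is not given there, so neither block need match the batches. With the replicate block, the calls numbered 13 for dilated against untreated (9 of the 12 among them), 1 for constricted against untreated and 10 for dilated against constricted (5 of the 6 among them). What share of all genes was called with this block is not given here. The precision is set by 2 dilated libraries and, for members such as Gabra6, Gabrg1 and Gabra4, by few UMIs.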
